A study of Mus musculus with 12 samples.

Results

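UDP-glucuronosyltransferase (UGT) and cytosolic sulfotransferase (SULT) genes were examined in the liver of mice on 4 diets. The set holds every gene of the expression table whose symbol begins with Ugt1a, Ugt2a, Ugt2b, Ugt3a, or with Sult and a digit. It amounts to 48 of 54532 genes, 21 Ugt and 27 Sult, of which 6 are annotated pseudogenes. A mean of at least 1 FPKM (fragments counted on a gene relative to its length in kilobases and to a scale set for each library) over the 12 mice was reached by 21 members, 15 Ugt and 6 Sult, and these were tested. Of the others, 11 had a value in some mouse but a mean below 1 FPKM, and 16 were listed at 0 in every mouse.

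The livers came from male C57BL/6J mice that had been on their diets for 26 weeks from 5 weeks of age, with 3 mice in each group. Mice of the ND group received a normal diet (CE-2) and those of the control group a high-fat diet (HFD32). HYA-treated mice and LA-treated mice received the same high-fat diet with 1% HYA or 1% linoleic acid (LA). HYA is a hydroxy fatty acid formed from LA by gut lactic acid bacteria, and it carries a hydroxyl group in place of an unsaturated bond of LA. No mutation or transgene is given for any group. LA thus served as the parent compound of HYA at a matched dose and time. Each library was made from whole liver, so that hepatocytes and all other liver cells contributed to it.

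UGT enzymes sit in the endoplasmic reticulum and attach glucuronic acid, taken from UDP-glucuronic acid, to bilirubin, steroids, bile acids, fatty acids, and drugs. SULT enzymes are cytosolic and transfer a sulfo group from 3′-phosphoadenosine-5′-phosphosulfate (PAPS) to phenols, catecholamines, thyroid and steroid hormones, and bile acids. The conjugates are more soluble in water and leave the hepatocyte through transporters into bile or blood. Several genes of both families differ in level between male and female mouse liver.

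The Ugt1a members are unusual in structure, in that each has its own promoter and its own first exon but shares the remaining exons with the others. The Ugt2b members are separate genes that arose by duplication. Sequence upstream of the RefSeq transcription start (build GRCm38.p6) is shown for 4 Ugt2b genes because their windows are alike although their levels were not, and for Ugt1a1 and Ugt1a9 because these transcripts of the same locus changed in opposite directions. Ugt2a3 is shown because its mRNA changed strongly and its window holds GTTAAT 2 times in a row. Each line gives the 150 bases before the start, 5′ to 3′ on the strand of the gene, with the letters AGGTCA (found in recognition sites of nuclear receptors) and GTTAAT (found in those of HNF1), or their reverse complements, in capitals.
Ugt2b5, chr5:87140341-87140490, minus strand: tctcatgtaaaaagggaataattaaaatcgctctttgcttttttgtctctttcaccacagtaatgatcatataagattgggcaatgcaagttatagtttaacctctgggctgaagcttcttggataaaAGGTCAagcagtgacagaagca
Ugt2b36, chr5:87092556-87092705, minus strand: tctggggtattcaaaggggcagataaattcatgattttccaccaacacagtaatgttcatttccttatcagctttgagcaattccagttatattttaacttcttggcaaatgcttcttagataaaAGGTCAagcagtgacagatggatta
Ugt2b37, chr5:87254789-87254938, minus strand: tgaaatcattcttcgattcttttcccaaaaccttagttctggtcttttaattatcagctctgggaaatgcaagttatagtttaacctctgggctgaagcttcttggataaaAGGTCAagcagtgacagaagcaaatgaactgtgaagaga
Ugt2b38, chr5:87424204-87424353, minus strand: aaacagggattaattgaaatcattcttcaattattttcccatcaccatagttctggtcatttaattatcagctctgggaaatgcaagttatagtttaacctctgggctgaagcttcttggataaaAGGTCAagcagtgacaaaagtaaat
Ugt2a3, chr5:87337196-87337345, minus strand: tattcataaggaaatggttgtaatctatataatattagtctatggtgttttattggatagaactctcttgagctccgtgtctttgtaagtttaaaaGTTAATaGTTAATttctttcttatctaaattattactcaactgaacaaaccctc
Ugt1a1, chr1:88211809-88211958, plus strand: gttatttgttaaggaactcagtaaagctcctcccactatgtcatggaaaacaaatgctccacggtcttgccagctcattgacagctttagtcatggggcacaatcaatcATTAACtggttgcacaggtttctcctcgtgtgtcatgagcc
Ugt1a9, chr1:88070629-88070778, plus strand: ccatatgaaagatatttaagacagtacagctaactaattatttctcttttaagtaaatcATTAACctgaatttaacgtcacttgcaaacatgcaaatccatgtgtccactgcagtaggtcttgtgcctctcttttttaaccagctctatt

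The windows of Ugt2b37 and Ugt2b38 were 78.0% identical in a global alignment, those of Ugt2b38 and Ugt2b5 75.0%, and those of Ugt2b36 and Ugt2b38 70.5%. Ugt2b37 and Ugt2b38 shared an unbroken run of 82 bases, and Ugt2b37 and Ugt2b5 a run of 68 bases. AGGTCA lay within every shared run of these 4 genes and ended 17 bases before the start in Ugt2b5, 20 bases before it in Ugt2b36 and Ugt2b38, and 34 bases before it in Ugt2b37. By contrast, the mean levels of these genes over 12 mice were 321 FPKM for Ugt2b5, 265 FPKM for Ugt2b36, 11.9 FPKM for Ugt2b38, and 1.41 FPKM for Ugt2b37. RefSeq windows were matched for 36 members (39 windows, since some genes have more than 1 start). GTTAAT, on either strand, was present in 11 of the 39 windows compared with 3.71% of all 32851 windows of the same length, and AGGTCA in 7 of the 39 compared with 8.58%. TTCNNNGAA (N for any base) and GCGTG were searched as well. They were present in 2 and 4 of the 39 windows, compared with 4.09% and 20.5% of all windows, respectively. Many of the member windows are duplicates of each other by descent, and a match of letters is a description and does not show that a factor binds.

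The 12 libraries held 17169064 to 25220880 fragments on genes (median, 19610557). At this depth, 3 fragments on a 2-kb gene corresponded to between 0.0607 and 0.0944 FPKM, a floor that covers counting error only. The number of fragments on genes did not alone set the scale of the deposited values. ND replicate 3 and control replicate 3 held 19595277 and 19625837 fragments, but this floor was 0.0835 and 0.0724 FPKM, respectively. Fits with TPM and with voom on recovered fragments, given below, do not use that scale. The labelled tissue fitted its markers, with the sum of 7 hepatocyte genes (Alb, Apob, Ttr, Cps1, Serpina1c, Cyp2e1, Ass1) between 25366 and 42345 FPKM in all mice. That sum was not constant among the groups, being 41442 to 42345 FPKM in ND mice, 25366 to 29791 FPKM in control mice, 33267 to 35310 FPKM in HYA-treated mice, and 28290 to 28960 FPKM in LA-treated mice. All 7 hepatocyte genes fell and 4 of 6 stellate cell and myofibroblast genes rose in control compared with ND mice, the summed level of the latter being 29.4 to 38.1 FPKM in ND, 65.0 to 85.3 FPKM in control, 51.6 to 63.7 FPKM in HYA-treated, and 70.5 to 84.6 FPKM in LA-treated mice. Of 6 intestinal genes, Fabp2 and Lgals4 rose in control mice, whereas Cdx2 was at 0 in every mouse and Vil1 did not exceed 0.235 FPKM. All 5 kidney genes were at or near 0, and 4 of 5 pancreatic genes were at 0. The other pancreatic gene, Cela1, measured 6.61 to 11.3 FPKM in ND and 3.91 to 4.60 FPKM in control mice.

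Most of the UGT signal came from a few Ugt2b genes. In ND mice the Ugt genes summed to 1750.1 ± 66.8 FPKM (SD, n = 3), of which Ugt2b5 made up 23.3%, Ugt2b36 17.9%, and Ugt2b1 14.7%. Ugt2b enzymes conjugate steroids and bile acids. Over all 12 mice, Ugt2b5 (321 FPKM) and Ugt2b36 (265 FPKM) had the highest levels per length, followed by Ugt2b1 (156 FPKM), Ugt2b34 (119 FPKM), Ugt3a2 (118 FPKM), Ugt2a3 (102 FPKM), and Ugt1a1 (93.6 FPKM). The ranges of Ugt2b34 and Ugt3a2 overlapped within each of the ND and control groups, so that their order is not set by these data. The place of Ugt1a1 is also uncertain, because its length includes exons shared with other Ugt1a genes. Ugt1a1, the bilirubin-conjugating enzyme, was the most abundant member of its locus at 126 ± 2.60 FPKM in ND mice.

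Sulfotransferase signal was concentrated in 2 genes. The Sult genes summed to 442 ± 29.1 FPKM (SD, n = 3) in ND mice, with 57.0% from Sult2a8, a sulfotransferase of bile acids, and 28.8% from Sult1a1, which sulfates phenols. Sult1d1, which acts on catecholamines, supplied 10.05%, and Sult1b1, which acts on thyroid hormone, 2.44%. In control mice the order of the leading genes was the other way round, with 57.1% of the sum from Sult1a1 and 26.0% from Sult2a8. HYA-treated mice had 42.1% from Sult1a1 and 45.6% from Sult2a8, whereas LA-treated mice had 53.9% and 30.5%, respectively.

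**Figure D1:**
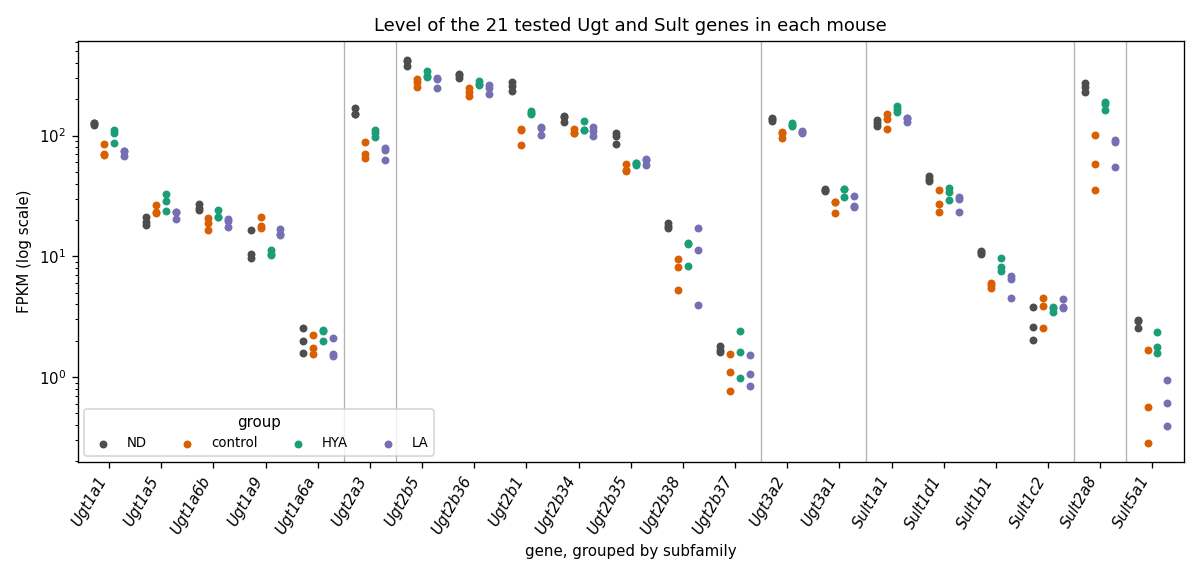
FPKM (log scale) of the 21 tested Ugt and Sult genes in each of the 12 mice, grouped by subfamily and coloured by diet group. Levels run from 0.284 FPKM for Sult5a1 in a control mouse to 425 FPKM for Ugt2b5 in an ND mouse.

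The members without fragments in these male livers were mainly sulfotransferases. Of the 16 members listed at 0 in all mice, 8 were Sult2a genes or pseudogenes, including Sult2a1, Sult2a4, Sult2a5, and Sult2a6, and the female-typical Sult2a2 and Sult3a1 did not exceed 3 and 2 fragments, respectively, in any mouse. The other members at 0 were Sult1c1 and 2 Sult1c2 pseudogenes, Sult3a2, Sult6b1, Sult6b2, Ugt2a1, and Ugt2a2. For Ugt2a1 and Ugt2a2, 98.8% and 94.5% of the exon bases belong on the same strand to each other or to Gm43638, and whether fragments from them went unassigned was not tested, so that their 0 gives no level. For the other members at 0, a level of up to the 3-fragment floor remains possible. Values by group are given here for some members near the limit, which were not part of the main test. Sult2a7 measured 1.51, 2.27 and 1.13 FPKM in ND mice and 0.655, 0.476 and 0.566 FPKM in control mice, with no overlap. Ugt1a7c measured 1.81, 0.269 and 0.396 FPKM in ND mice and 0.320, 0.244 and 1.45 FPKM in control mice. It measured 1.45, 1.84 and 2.18 FPKM in HYA-treated mice, and 0.667, 0.222 and 0.436 FPKM in LA-treated mice. The highest control mouse was almost level with the lowest HYA-treated mouse, and ND replicate 1 lay within the HYA range. In limma fits that kept low genes, Ugt1a7c did not pass in HYA-treated compared with control mice (adjusted p = 0.179 with a filter of 10 mean fragments and 0.324 without a filter). Sult1e1, the oestrogen sulfotransferase, measured 0.225, 0.302 and 0.311 FPKM in control and 0, 0 and 0.0977 FPKM in HYA-treated mice, at no more than 8 fragments in any mouse.

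The members lie in a few gene clusters (GRCm38 coordinates of the table). The 9 Ugt1a genes occupy chr1:88055388-88220002. All 10 Ugt2 genes lie within chr5:86889767-87490871, and Sult1b1, Sult1d1, and Sult1e1 follow directly at chr5:87513339-87591594. Within the Ugt2 cluster, the tested members ranged from Ugt2b5 at 321 FPKM to Ugt2b37 at 1.41 FPKM. The 12 Sult2a genes and pseudogenes occupy chr7:13623967-14494230, of which Sult2a8 alone passed the filter. Ugt3a1 and Ugt3a2 are neighbours at chr15:9276888-9370955.

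Assignment of fragments to Ugt1a members is uncertain. Between 50.3% and 60.6% of the exon bases of each Ugt1a gene belong on the same strand to other Ugt1a genes, and 49.1% to 74.5% of their 150-base windows occur in another gene. Ugt1a2, Ugt1a8, and Ugt1a10 were nevertheless at 0.206, 0.00517, and 0.170 FPKM beside 93.6 FPKM for Ugt1a1, so that fragments from the common exons had not been credited to every gene that holds them. The deposited length of every member equalled its full exon length, common exons included. Had fragments from the common exons gone uncounted, Ugt1a levels would be too low beside those of other subfamilies. Ranks, shares of the Ugt sum, and the Ugt1a sum would be affected, and this was not tested. Ugt2b5 and Ugt2b38 also share 19.5% and 19.2% of their windows with another gene, whereas 14 of the 21 tested members share none. On the opposite strand, Gm20528 overlaps 41.5% of the exon bases of Ugt1a1, and whether the counting used strand is not given in the sources used here.

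The comparison of control with ND mice asked what the high-fat diet did to these genes, and it gave the broadest change of the 4 comparisons. Of 21 tested members, 15 fell and only Ugt1a9 rose (limma, Benjamini-Hochberg adjusted p below 0.05). Over all 11083 tested genes, 19.1% fell and 16.2% rose by the same rule. The median log2 fold change of the members was -0.45, beside -0.04 for all tested genes. The members that fell were Ugt1a1, Ugt1a6b, Ugt2a3, 6 of 7 Ugt2b genes, both Ugt3a genes, Sult2a8, Sult5a1, and the Sult1 genes Sult1b1 and Sult1d1. The ranges of control and ND mice did not overlap downward for 16 members, beside 25.7% of all tested genes. These are bulk libraries, in which fewer cells of a type and less RNA per cell cannot be told apart. The summed level of the Ugt genes in control mice was 64.0% of that in ND mice and the hepatocyte marker sum was 66.5%, and the part of that marker shift in the members' changes was not tested.

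The 5 members that fell more than 2-fold (log2 fold change below -1) were Sult2a8, Ugt2b1, Ugt2b38, Sult5a1, and Ugt2a3. By this rule 1.63% of all tested genes fell. Sult2a8 measured 232, 252 and 272 FPKM in the 3 ND mice and 35.4, 102 and 58.0 FPKM in the 3 control mice. No control mouse came near the ND range, although the control mice differed among themselves by more than the ND mice did. The log2 fold change was -2.06 (SE 0.31, adjusted p = 0.000534), the control mean being 25.8% of the ND mean.

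Ugt2b1 measured 235, 278 and 257 FPKM in ND and 83.0, 113 and 112 FPKM in control mice. The groups were far apart, with a log2 fold change of -1.33 (SE 0.11) and the lowest adjusted p of all members (1.52e-05). Ugt2a3, an enzyme of liver and gut, measured 151, 171 and 151 FPKM in ND and 69.9, 88.8 and 64.8 FPKM in control mice. Every control mouse lay below every ND mouse, and the log2 fold change was -1.08 (SE 0.12, adjusted p = 9.05e-05). Sult5a1 was a low-level member with 2.55, 2.89 and 2.997 FPKM in ND and 0.284, 1.67 and 0.568 FPKM in control mice. Its control values spread widely but did not reach the ND range, and on the log2(FPKM + 1) scale, which understates changes at such levels, the fold change was -1.12 (SE 0.23, adjusted p = 0.00359).

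Ugt2b38 measured 18.8, 17.7 and 17.0 FPKM in ND and 9.47, 5.25 and 8.14 FPKM in control mice, without overlap. Its log2 fold change of -1.16 (SE 0.39) had an adjusted p of 0.0377. That call was lost when any 1 of the 6 ND and control mice was left out, with adjusted p from 0.0526 without control replicate 1 to 0.117 without control replicate 2, and also without a filter on low values (adjusted p = 0.0836), with TPM (adjusted p = 0.0901), and with voom (adjusted p = 0.0508). Ugt2b38 varied more than the other tested members in LA-treated mice (3.94, 11.4 and 17.0 FPKM), and that group enters the common estimate of spread.

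The leading genes of the other subfamilies fell less. Ugt1a1 measured 124, 127 and 128 FPKM in ND and 70.0, 84.6 and 68.5 FPKM in control mice. These ranges were well separated, and Ugt1a1 mRNA fell by 0.76 on the log2 scale (SE 0.10, adjusted p = 0.000254). Ugt2b5 measured 425, 419 and 378 FPKM in ND and 252, 294 and 278 FPKM in control mice, and Ugt2b36 measured 317, 324 and 302 FPKM and 213, 248 and 230.2 FPKM. In each case the control mice lay below the ND mice, with log2 fold changes of -0.57 (adjusted p = 0.000764) and -0.45 (adjusted p = 0.00102). Ugt2b35 measured 104, 98.5 and 84.8 FPKM in ND and 51.7, 50.6 and 58.5 FPKM in control mice, a fall of 0.82 (adjusted p = 4.61e-05).

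Ugt3a2, whose subfamily uses sugar donors other than UDP-glucuronic acid, measured 133, 137 and 139 FPKM in ND and 95.5, 106 and 107 FPKM in control mice. The change was small but the mice of each group were close together, so that a log2 fold change of -0.41 (SE 0.053) had an adjusted p of 0.000233. Its neighbour Ugt3a1 fell from 35.6 ± 0.885 to 26.5 ± 3.19 FPKM (adjusted p = 0.00885), a call that was lost with TPM (adjusted p = 0.137) and with voom on recovered fragments (adjusted p = 0.0703). Among the remaining members, Sult1b1 fell from 10.8 ± 0.358 to 5.73 ± 0.271 FPKM (adjusted p = 0.000566), Sult1d1 from 44.3 ± 2.19 to 28.4 ± 6.14 FPKM (adjusted p = 0.00633), Ugt1a6b from 25.6 ± 1.56 to 18.7 ± 2.07 FPKM (adjusted p = 0.00412), and Ugt2b34 from 139.8 ± 8.82 to 108 ± 5.23 FPKM (adjusted p = 0.00882). All of these means are of 3 mice with their SD. With TPM, Ugt1a6b (adjusted p = 0.0688) and Ugt2b34 (adjusted p = 0.289) did not pass, and with voom Ugt2b34 did not (adjusted p = 0.123).

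The exception was Ugt1a9, which acts on phenols and fatty acids. It measured 16.6, 9.72 and 10.5 FPKM in ND and 17.2, 17.9 and 21.1 FPKM in control mice. A single ND mouse lay just below the control range and the others well below it, and the log2 fold change was 0.60 (SE 0.16, adjusted p = 0.0121). When only ND and control mice entered the fit, the adjusted p was 0.0568. At the same locus, Ugt1a5 measured 19.2, 21.2 and 18.1 FPKM in ND and 22.7, 26.4 and 23.3 FPKM in control mice without overlap but did not pass the test (log2 fold change 0.29, adjusted p = 0.0565).

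Sult1a1, the most abundant Sult1 gene, did not pass the test on FPKM. It measured 121, 126 and 134 FPKM in ND and 114, 152 and 137 FPKM in control mice, with overlapping ranges, and the 95% interval of its log2 fold change was -0.14 to 0.28. Ugt1a6a, Sult1c2, and Ugt2b37 also did not pass, with intervals of -0.39 to 0.20, -0.10 to 0.68, and -0.78 to 0.073, respectively. Results of this comparison depend on the scale of the libraries. The FPKM of all genes summed to 407652 to 429286 in ND mice and to 342146 to 368132 in control mice, and rescaling each mouse to the same total (TPM) put the median log2 fold change at 0.18 for all tested genes and at -0.30 for the members, with 12 members lower (11 of the 15 above, and Sult2a7) and 3 higher. The members higher under TPM were Ugt1a9, Sult1a1 (log2 fold change 0.31, adjusted p = 0.00984), and Ugt1a5 (log2 fold change 0.54, adjusted p = 0.00319). Voom called the same 3 genes higher.

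**Figure D2:**
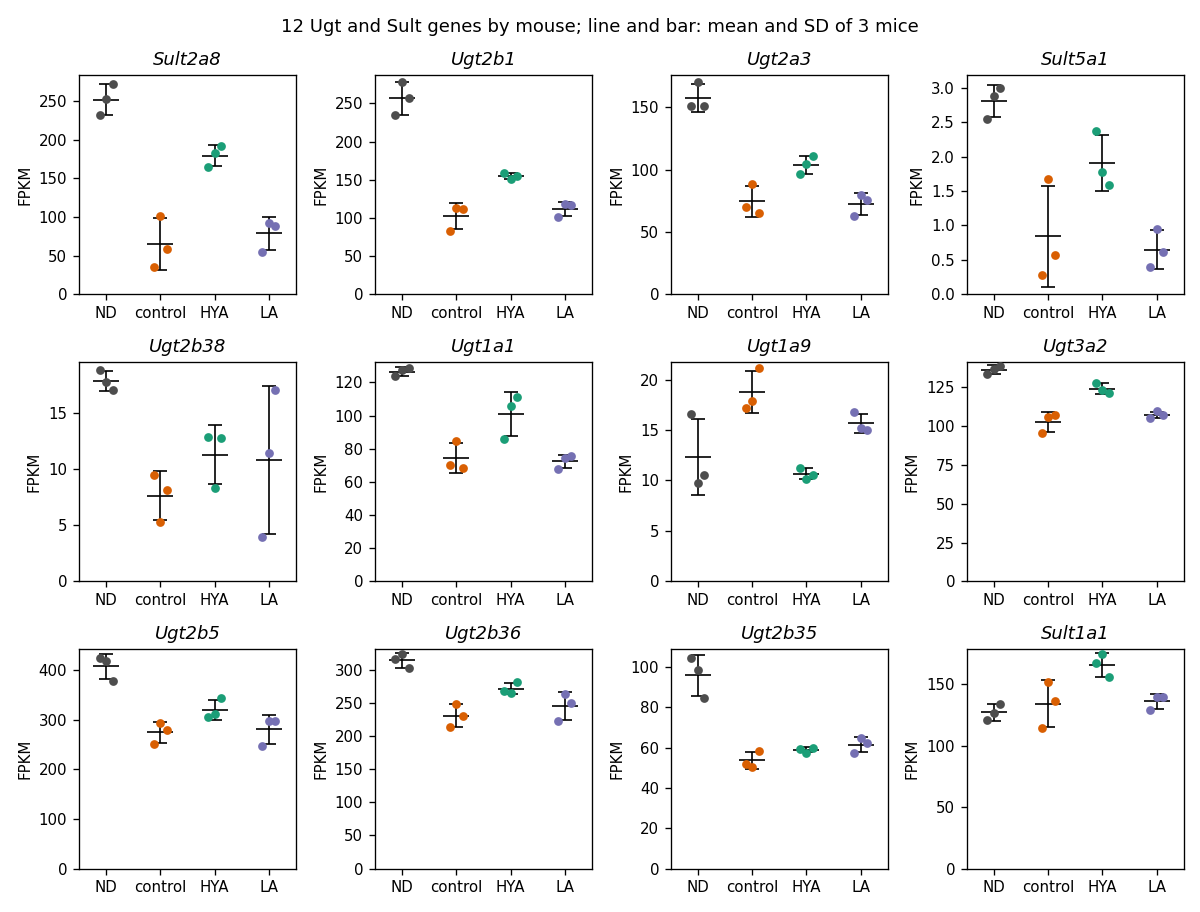
FPKM of 12 Ugt and Sult genes in each mouse of the 4 groups, with a line at the mean and a bar for the SD of 3 mice, all axes starting at 0. Sult2a8 measured 232 to 272 FPKM in ND, 35.4 to 102 FPKM in control, 164 to 192 FPKM in HYA-treated, and 54.7 to 92.8 FPKM in LA-treated mice, and Ugt1a9 had its highest values in control mice.

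The comparison of HYA-treated with control mice asked what HYA added to the high-fat diet did. Of the 21 tested members, Ugt2b1, Ugt3a2, Sult2a8, and Ugt1a1 rose and Ugt1a9 fell (limma, Benjamini-Hochberg adjusted p below 0.05), compared with 1.57% of all tested genes that rose and 1.23% that fell. Sult2a8 alone passed the 2-fold threshold, beside 0.162% of all tested genes that rose by this rule. Beyond these calls, 20 of the 21 fold changes were above 0 (Sult1c2 turned below 0 with TPM and with voom), as were 55.6% of those of all tested genes. The ranges of HYA-treated and control mice did not overlap upward for 11 members, beside 12.7% of all tested genes. The median log2 fold change of the members was 0.27, beside 0.02 for all tested genes, and the control mice are the same as those in the comparison with ND mice. The hepatocyte marker sum was higher in each HYA-treated mouse than in any control mouse (ranges above), and its part in these changes was not tested.

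Sult2a8 measured 164, 183 and 192 FPKM in HYA-treated mice, above every control mouse (35.4, 102 and 58.0 FPKM) and below every ND mouse. Its log2 fold change was 1.57 (SE 0.31, adjusted p = 0.0323), corresponding to a mean 276% of that of control mice. Ugt2b1 measured 159, 151 and 155 FPKM in HYA-treated mice. The 3 values lay close together and above the control range, with a log2 fold change of 0.61 (SE 0.11, adjusted p = 0.0293).

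Ugt1a1 measured 86.1, 106 and 111 FPKM in HYA-treated mice, where the lowest value was just above the highest of the control mice (70.0, 84.6 and 68.5 FPKM). Its log2 fold change of 0.43 (SE 0.10) had an adjusted p of 0.0498, at the edge of the threshold. Ugt3a2 measured 128, 123 and 121 FPKM in HYA-treated mice, all above the control mice, with a log2 fold change of 0.27 (SE 0.053, adjusted p = 0.0316). Ugt1a9 moved the other way, with 11.3, 10.2 and 10.5 FPKM in HYA-treated mice beside 17.2, 17.9 and 21.1 FPKM in control mice. The ranges were apart, and Ugt1a9 mRNA fell by 0.76 on the log2 scale (SE 0.16, adjusted p = 0.0357).

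These calls rested on few mice. Without control replicate 1, HYA replicate 2, or HYA replicate 3, no member passed the test, and without control replicate 3 or HYA replicate 1 a single member did (Ugt2b1 and Ugt1a1, respectively). Without control replicate 2, by contrast, 7 members rose and Ugt1a9 fell, the members that joined being Ugt2a3, Sult1a1, and Sult5a1. For Sult2a8 the log2 fold change was 1.21 without control replicate 1 (adjusted p = 0.0897) and 1.56 without HYA replicate 2 (adjusted p = 0.133). With only the HYA-treated and control mice in the fit, no gene of the table passed, while 1723 of 11083 had an unadjusted p below 0.05. With TPM, Ugt3a2 (adjusted p = 0.0982) and Ugt1a1 (adjusted p = 0.0779) no longer passed, and without any filter on low values only Ugt3a2 did. Ugt3a2 was lost with voom (adjusted p = 0.0664) and Ugt1a1 with a pseudocount of 0.1 (adjusted p = 0.0526). The log2 fold changes of the 5 called members kept their sign in all of these fits.

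Members that did not pass in HYA-treated compared with control mice included Ugt2a3, which measured 96.6, 104 and 111 FPKM in HYA-treated and 69.9, 88.8 and 64.8 FPKM in control mice. These ranges were apart, and the 95% interval of the log2 fold change was 0.22 to 0.75 (adjusted p = 0.0606). Sult1b1 had 7.57, 9.64 and 8.16 FPKM beside 5.45, 5.99 and 5.75 FPKM, again apart (interval 0.22 to 0.75, adjusted p = 0.0614). Sult1a1 measured 167, 175 and 156 FPKM in HYA-treated mice, all above the control mice and also above the ND mice (interval 0.10 to 0.52, adjusted p = 0.106). Sult5a1 measured 2.37, 1.77 and 1.58 FPKM in HYA-treated mice, overlapping the highest control mouse (adjusted p = 0.1203).

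The abundant Ugt2b genes were only slightly apart. Ugt2b5 measured 305, 312 and 343 FPKM and Ugt2b36 268, 265 and 282 FPKM in HYA-treated mice, above all control mice in each case, with adjusted p of 0.216 and 0.115. Ugt2b35, which had fallen on the high-fat diet by 0.82 on the log2 scale, measured 59.5, 57.4 and 59.7 FPKM in HYA-treated mice and overlapped the control range (interval -0.049 to 0.32). Ugt2b38 likewise overlapped, at 12.8, 8.25 and 12.7 FPKM (interval -0.33 to 1.37). The interval of Sult1c2 was -0.37 to 0.42, the fold change nearest to 0 among the members.

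**Figure D3:**
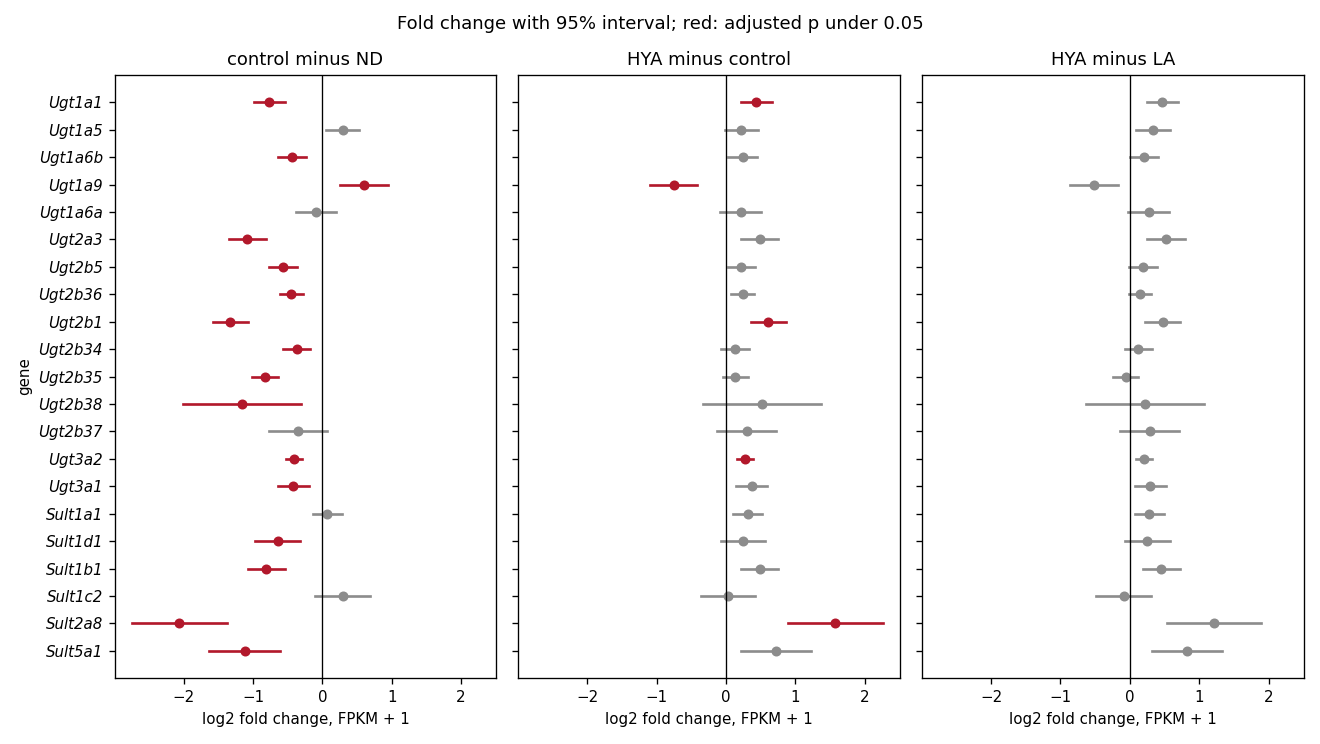
Log2 fold change of FPKM + 1 with its 95% interval (limma, 12 mice in the fit) for the 21 tested genes in control minus ND, HYA minus control, and HYA minus LA, with red marking an adjusted p below 0.05. Red marks 16 genes in the left panel, 5 in the middle panel, and 0 in the right panel.

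LA-treated mice were compared with control mice to see the effect of the parent fatty acid, and no member passed the test, nor did any other of the 11083 tested genes (0%). Voom on recovered fragments also called 0 of 14353 genes. At an unadjusted p below 0.05 there was 1 member, Ugt2b35, beside 2.65% of all tested genes. Ugt2b35 measured 57.4, 64.5 and 62.4 FPKM in LA-treated mice and 51.7, 50.6 and 58.5 FPKM in control mice. The ranges overlapped, the interval of the log2 fold change was 0.011 to 0.38, and the adjusted p was 0.999. Ugt1a9 measured 16.8, 15.2 and 14.97 FPKM in LA-treated mice, all below the control mice (interval -0.58 to 0.10). Sult2a8 measured 54.7, 92.8 and 88.7 FPKM in LA-treated mice, within the control range, and its wide interval of -0.32 to 1.04 reached a 2-fold increase at its upper end. For the more precisely measured Ugt2b36 (223, 263 and 250.4 FPKM in LA-treated mice) and Ugt3a2 (105, 109 and 107 FPKM), the intervals were -0.074 to 0.25 and -0.054 to 0.18.

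HYA and LA were given at the same dose for the same time and differ by the hydroxyl group, so that HYA-treated and LA-treated mice could be compared directly. No member passed the test over all genes, whereas 0.235% of all tested genes passed as higher with HYA and 0.253% as lower. At an unadjusted p below 0.05, 10 members were higher and Ugt1a9 was lower in HYA-treated mice, beside 10.2% and 7.01% of all tested genes. The ranges did not overlap for 12 members higher and 1 lower in HYA-treated mice, beside 14.8% and 10.4% of all tested genes. The lowest adjusted p was that of Ugt1a1 (0.0663), which measured 86.1, 106 and 111 FPKM in HYA-treated and 67.9, 74.1 and 75.3 FPKM in LA-treated mice. These ranges were apart (log2 fold change 0.47, interval 0.24 to 0.69), and without HYA replicate 1 the adjusted p was 0.0484.

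Ugt2a3 measured 62.4, 79.2 and 75.5 FPKM and Ugt2b1 101, 118 and 117 FPKM in LA-treated mice, below all HYA-treated mice in each case. The intervals of their log2 fold changes were 0.25 to 0.79 (adjusted p = 0.0724) and 0.22 to 0.72 (adjusted p = 0.0772). Sult2a8 was higher in each HYA-treated mouse than in any LA-treated mouse, with a log2 fold change of 1.21 (interval 0.53 to 1.90, adjusted p = 0.0870). Sult5a1 measured 0.393, 0.944 and 0.609 FPKM in LA-treated mice, also apart (interval 0.32 to 1.33, adjusted p = 0.108). Ugt1a9 was apart in the other direction (interval -0.86 to -0.17, adjusted p = 0.126). The abundant Ugt2b5 measured 247, 297 and 298 FPKM in LA-treated mice and had an interval of -0.0054 to 0.39, and Ugt2b36 one of -0.016 to 0.31. Sult1a1, at 129, 139.9 and 139.6 FPKM in LA-treated mice, lay below all HYA-treated mice (interval 0.073 to 0.49).

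The 4 Ugt subfamilies had lower summed levels in control than in ND mice. The Ugt2b sum was 1248, 1282 and 1171 FPKM in ND mice and 715, 826 and 793 FPKM in control mice. Mice given HYA had sums of 918, 906 and 988 FPKM, and mice given LA had sums of 731, 865 and 864 FPKM. HYA-treated mice lay between ND and control mice without overlap, and LA-treated mice overlapped the control mice. The Ugt1a sum was 187 ± 2.44 FPKM in ND, 139 ± 11.1 FPKM in control, 167 ± 13.4 FPKM in HYA-treated, and 132 ± 1.66 FPKM in LA-treated mice (SD, n = 3). The Ugt3a sum was 172 ± 2.22, 129 ± 9.45, 159 ± 6.13, and 135 ± 5.06 FPKM in the same order, with HYA-treated mice above all control and LA-treated mice.

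The sulfotransferase subfamilies were unlike each other. The Sult2 sum, nearly all Sult2a8, stood in control mice at 25.9% of its ND mean, in HYA-treated mice at 71.1%, and in LA-treated mice at 31.3%. The Sult1 sum stood at 93.1%, 114%, and 94.2%, respectively. It measured 178, 182 and 196 FPKM in ND and 147, 197 and 172 FPKM in control mice, which overlapped, and the mean was higher in control than in ND mice when each mouse was rescaled to TPM. HYA-treated mice had the highest Sult1 sums, at 208, 222 and 204 FPKM, above all mice of the other groups. No test was run on these sums.

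**Figure D4:**
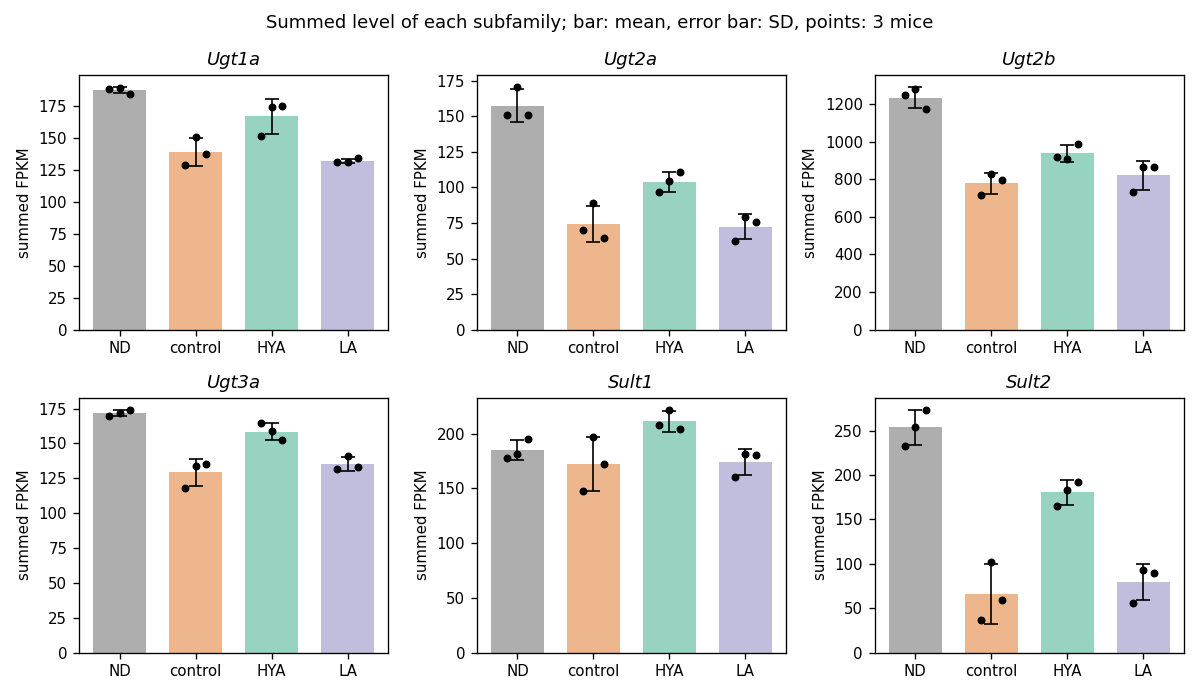
Summed FPKM of each subfamily with abundant members in the 4 groups, with bars for the mean, error bars for the SD, and points for the 3 mice. The Ugt2b sum averaged 1233 FPKM in ND and 778 FPKM in control mice, and the Sult2 sum 254 and 65.8 FPKM.

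Spread among mice of a group differed by diet and gene. The coefficient of variation of the 21 tested members had a median of 6.25% among ND, 12.0% among control, 8.71% among HYA-treated, and 9.22% among LA-treated mice. It was lowest for Ugt3a2 in ND (2.02%) and LA-treated (1.89%) mice, and highest for Sult5a1 in control mice (87.2%) and Ugt2b38 in LA-treated mice (60.9%). The members tended to be high or low in the same mouse. Control replicate 2 had the highest level of its group for 14 of the 21 members and control replicate 1 the lowest for 13, and LA replicate 1 had the lowest level of its group for 16. The hepatocyte marker sum followed this order among control mice, with 29791 FPKM in replicate 2 and 25366 FPKM in replicate 1. It was also lowest in LA replicate 1, but only slightly, at 28290 FPKM compared with 28656 and 28960 FPKM. The Ugt sum there was 1056 FPKM, compared with 1216 and 1206 FPKM in LA replicates 2 and 3. HYA replicate 3 was highest for 11 members, whereas the marker sum was highest in HYA replicate 2 (35310 FPKM, and 34879 FPKM in replicate 3).

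Genes that supply and reverse conjugation were counted by list. Of 8 genes for UDP-glucuronic acid and its removal, 2 rose and 2 fell in control compared with ND mice, where 16.2% of all tested genes rose and 19.1% fell. Gusb, the lysosomal enzyme that cleaves glucuronides, had means of 6.95 FPKM in ND, 10.2 FPKM in control, 7.72 FPKM in HYA-treated, and 10.04 FPKM in LA-treated mice. It rose in control compared with ND mice (log2 fold change 0.49, adjusted p = 6.67e-05) and fell in HYA-treated compared with control mice (-0.36, adjusted p = 0.0168). Slc35d1, which carries UDP-glucuronic acid into the endoplasmic reticulum, fell from 18.1 to 13.6 FPKM on the high-fat diet (adjusted p = 0.0132). Ugdh, which forms UDP-glucuronic acid, had means of 33.7, 34.8, 27.5, and 33.4 FPKM in ND, control, HYA-treated, and LA-treated mice and passed neither test.

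Of 12 genes for PAPS and sulfate, 10 were in the table and 8 were tested, of which 2 fell in control compared with ND mice, beside 19.1% of all tested genes. Suox, which makes sulfate from sulfite, fell from 73.9 to 48.8 FPKM, a log2 fold change of -0.59 (adjusted p = 0.000533), and the sulfate transporter Slc26a1 fell from 54.4 to 48.2 FPKM (adjusted p = 0.0324). Papss2, which makes PAPS, had means of 58.5, 46.7, 62.4, and 41.9 FPKM in ND, control, HYA-treated, and LA-treated mice without passing either test. No gene of this list passed in HYA-treated compared with control mice.

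Transporters of conjugates and bile acids gave 5 of 9 tested genes lower in control than in ND mice (19.1% of all tested genes) and 3 of 9 higher in HYA-treated than in control mice (1.57% of all tested genes). Slco1a1, an uptake carrier of sulfated and glucuronidated steroids, had means of 86.1, 10.5, 47.9, and 11.04 FPKM in ND, control, HYA-treated, and LA-treated mice. It fell in control mice (log2 fold change -3.14, adjusted p = 0.000251) and rose in HYA-treated compared with control mice (2.30, adjusted p = 0.0271). The bile acid carrier Slc10a1 likewise fell (-0.90, adjusted p = 0.000247) and rose (0.80, adjusted p = 0.0168). Slco1a1 is also in the list of male-biased genes. The 3 genes that rose, with Slco1b2 as the other, take compounds up into the hepatocyte.

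Of 20 regulators of conjugation genes, all transcription factors but the NRF2 inhibitor Keap1, 1 rose and 3 fell in control compared with ND mice (16.2% and 19.1% of all tested genes), and none passed in HYA-treated compared with control mice (limma, with 2.8% of all tested genes called). Nfe2l2 rose from 21.0 to 35.4 FPKM (adjusted p = 0.000247), whereas Foxa3 fell from 26.1 to 12.0 FPKM (adjusted p = 7.25e-05) and Hnf4a from 152 to 104 FPKM (adjusted p = 0.000531). Of 12 tested target genes of xenobiotic and lipid receptors outside the set, 5 rose and 5 fell in control mice. The PXR target Cyp3a11 fell from 958 to 267 FPKM (adjusted p = 1.32e-07), and the NRF2 targets were mixed. Nqo1 rose from 4.27 to 9.77 FPKM (adjusted p = 5.23e-05), Gclm fell from 42.7 to 31.3 FPKM (adjusted p = 9.84e-05), and Gclc did not pass (adjusted p = 0.713). HYA-treated mice had lower levels than control mice for 2 of these 12 genes, Cyp2b9 and Cyp2b13, and no gene was called higher. Over all tested genes, 1.23% were lower and 1.57% higher. Cyp2b9 and Cyp2b13 are also in the list of female-biased genes and are counted there too.

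Sex-biased liver genes outside the set were counted as well. Of 19 male-biased genes, 17 fell in control compared with ND mice (median log2 fold change -2.20), beside 19.1% of all tested genes (median -0.04). In HYA-treated compared with control mice, 9 rose (median 0.77), beside 1.57% of all tested genes (median 0.02). Of 24 female-biased genes, 12 passed the filter and were tested. Of these, 10 rose and 2 fell in control mice (median 1.84), where 16.2% of all tested genes rose and 19.1% fell. In HYA-treated compared with control mice, 1 rose and 3 fell, beside 1.57% and 1.23% of all tested genes. The filter used the mean over all 12 mice, most on the high-fat diet. A gene low in ND mice could thus pass through its rise on that diet. These lists had been drawn up with results of these livers known and are not independent evidence. For example, the male-biased Cyp2d9 had means of 613, 155, 265, and 189 FPKM in ND, control, HYA-treated, and LA-treated mice. The male-biased Cyp4a12b and Susd4 fell from 26.6 to 2.53 FPKM and from 12.8 to 2.68 FPKM, respectively, in control mice (adjusted p = 5.81e-06 and 2.43e-06). The female-biased Cyp17a1 rose from 1.67 to 59.6 FPKM (adjusted p = 7.78e-09).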

How the data were processed

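Liver RNA of 12 mice was sequenced from paired ends, and the authors deposited a table of FPKM per gene and mouse on build GRCm38. The processing notes name fastp, HISAT2 2.0.5, and featureCounts 1.5.0-p3. Expression is called TPM in the methods section, but column totals differ between mice. The deposited values were therefore treated as FPKM, with a scale for each mouse that the number of fragments on genes does not alone set. Every value times gene length was a whole multiple of the smallest step of its column (tolerance 0.05, 100% of values), and this step was taken as 1 fragment.

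The 11083 genes whose mean reached 1 FPKM were tested on log2(FPKM + 1) with limma 3.58.1 in R 4.3.3 (empirical Bayes with trend, two-sided, 12 mice in 1 fit), with Benjamini-Hochberg adjustment over all tested genes and a threshold of 0.05. The fit was also run on simulated fragments, drawn with the same dispersion for every gene and scaled by column totals. The deposited values are not scaled in that way, so that the simulation does not bear on their scale. The 4 comparisons were control against ND, HYA and LA against control, and HYA against LA. Members and gene lists were chosen with earlier results of these data known. Values per mouse are given for members past 0.05 and a log2 fold change of 1 in any comparison, for the most abundant tested member of each subfamily, and for the 5 lowest p-values in HYA against control and the 3 lowest in LA against control and HYA against LA. Further genes given with values were chosen after these were seen. Coordinates of all 48 members matched GENCODE M21, from which shared exons were computed. Promoter windows are from RefSeq (GRCm38.p6) and were aligned with Biopython 1.88. Replicate numbers were not used as a block. Alternatives were median-ratio size factors, no filter, a filter of 10 mean fragments, a pseudocount of 0.1, TPM, a replicate block, voom on recovered fragments, fits of only the groups compared, and leaving out each mouse in turn. The size factors were computed on the deposited FPKM, which already carried a scale for each mouse. With them the median log2 fold change of control against ND over all tested genes was -0.044, beside -0.043 in the main fit. That setting is among the alternatives counted below, and its matches with the main fit carry little weight.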

Additional observations from a re-analysis of the deposited data

How the results depend on the processing

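For control compared with ND mice, the number of members that fell was between 12 and 16 in all settings (15 as reported), with Sult2a7 added in the settings that tested it and called it. Of the 15, 11 remained with TPM (without Ugt1a6b, Ugt2b34, Ugt2b38, and Ugt3a1), 12 with voom on recovered fragments (without Ugt2b34, Ugt2b38, and Ugt3a1), and 14 without a filter and without any 1 mouse (without Ugt2b38). For the same comparison, the number that rose was 2 without a filter, 3 with TPM, 3 with voom on recovered fragments, and 1 to 2 when a mouse was left out (2 without control replicate 3). For HYA-treated compared with control mice, the number that rose was 1 without a filter, 2 with TPM, and 0 in the fit of only these groups, and the number that fell was 0 without a filter and 0 in the fit of only these groups. Leaving out a mouse gave 0 to 7 members that rose and 0 to 1 that fell. For HYA-treated compared with LA-treated mice, 2 members were higher with voom (Sult2a8 and Ugt1a1) and 1 higher and 1 lower in the fit of only these groups, and 0 to 1 were higher when a mouse was left out (1 without HYA replicate 1). Over all genes, voom called 5185 of 14353 for control compared with ND mice, 737 for HYA-treated compared with control mice (310 of 11083 as reported), and 308 for HYA-treated compared with LA-treated mice (26 higher and 28 lower as reported). No setting called a member in LA-treated compared with control mice. TPM and voom both replace the scale of the deposited values with a total of each mouse. In control compared with ND mice, both put the median log2 fold change at 0.18 over the genes that each tested. They are therefore not separate checks on scale. The causes of the shifts in these counts were otherwise not tested, other than that fewer mice entered some fits.

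Rescaling to TPM put the median over all tested genes at a log2 fold change of 0.18 for control compared with ND mice and of -0.10 for HYA-treated compared with control mice, where the members had medians of -0.30 and 0.16. Log2 ratios of summed levels under TPM for control compared with ND mice were -0.20 for Ugt1a, -0.43 for Ugt2b, -0.18 for Ugt3a, and 0.13 for Sult1. The Ugt3a ratio of HYA-treated to control mice was 0.17, and ratios of HYA-treated to LA-treated mice were 0.22 for Ugt1a, 0.11 for Ugt3a, and 0.16 for Sult1.

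No source used here says that replicate numbers join mice, and 3 mice per group cannot settle it. Deviations of 18 same-numbered pairs correlated at -0.40 to 0.29, and 3 pairs were over 0.1. Those of pairs with different numbers correlated at -0.38 to 0.39. With the replicate block, 5 members were higher with HYA than with LA (Sult1b1, Sult2a8, Ugt1a1, Ugt2a3, and Ugt2b1) and 6 rose and 1 fell in HYA-treated compared with control mice. Over all 11083 genes, the block called 258 and 449, respectively.

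Over the 21 tested members and 4 comparisons, 1066 of the alternative values kept their direction and their side of the threshold, 51 kept only the direction, 21 passed the threshold newly, and 38 changed direction, all 38 in a comparison in which the member had not passed. Log2 fold changes of control compared with ND mice turned to 0.083 (TPM) and 0.065 (voom) for Ugt1a6a, and those of HYA-treated compared with control mice to -0.077 and -0.052 for Sult1c2. For Ugt2b34 in LA-treated compared with control mice they were -0.0010 and -0.0053. Leaving out a mouse gave -0.21 to 0.027 for Ugt1a6a and -0.024 to 0.18 for Sult1a1 in control compared with ND mice (negative for Sult1a1 without control replicate 2), -0.16 to 0.16 for Sult1c2 in HYA-treated compared with control mice, and -0.31 to 0.62 for Ugt2b38 in HYA-treated compared with LA-treated mice. In LA-treated compared with control mice the ranges that crossed 0 were -0.088 to 0.063 for Ugt1a1, -0.16 to 0.029 for Ugt1a6a, -0.043 to 0.11 for Ugt1a6b, -0.13 to 0.10 for Ugt2a3, -0.0077 to 0.21 for Ugt2b1, -0.034 to 0.12 for Ugt2b5, -0.059 to 0.074 for Ugt2b34, -0.12 to 0.14 for Ugt2b37, -0.11 to 0.83 for Ugt2b38, -0.027 to 0.12 for Ugt3a1, -0.081 to 0.12 for Sult1a1, -0.067 to 0.19 for Sult1b1, -0.067 to 0.26 for Sult1c2, -0.15 to 0.15 for Sult1d1, -0.0049 to 0.74 for Sult2a8, and -0.33 to 0.20 for Sult5a1. With 3 mice per group, intervals of variable members such as Sult2a8 and Ugt2b38 were wide, and levels under 3 fragments could not be told from 0.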

Other observations

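Relative to the summed level of the 7 hepatocyte genes, the Ugt sum differed little between groups, a ratio computed after the values had been seen. Per 1000 FPKM of these genes, the Ugt genes amounted to 41.8 ± 1.51 FPKM in ND, 40.3 ± 0.378 FPKM in control, 39.6 ± 1.44 FPKM in HYA-treated, and 40.5 ± 2.72 FPKM in LA-treated mice (SD, n = 3). The Sult genes amounted to 10.6 ± 0.808 FPKM in ND, 8.52 ± 1.46 FPKM in control, 11.4 ± 0.125 FPKM in HYA-treated, and 8.88 ± 1.05 FPKM in LA-treated mice. Single members departed from the sum. In control mice, 9 of the 21 tested members stood at a lower percentage of their ND mean than the marker sum (66.5%), with Sult2a8 at 25.8%, Ugt2b1 at 39.9%, and Ugt2a3 at 47.3%, whereas Ugt2b5 stood at 67.4%, Ugt1a9 at 153%, and Sult1a1 at 106%. No test was run on these ratios. Most of the marker sum was Alb, at 28483 to 30137 FPKM in ND mice, so that the ratios mainly follow that gene. The 7 marker genes did not fall alike. Apob measured 664 to 667 FPKM in ND and 569 to 615 FPKM in control mice, and Serpina1c 2323 to 2556 FPKM and 541 to 858 FPKM. The sum is therefore not a measure of hepatocyte content.

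In fits that kept genes of low level, Sult2a7 was lower in control than in ND mice (limma log2 fold change -0.73, adjusted p = 0.00119 with a filter of 10 mean fragments and 0.00505 without a filter). Sult1e1, tested only without a filter, had an adjusted p of 0.0494 for control above ND mice and 0.0524 for HYA-treated below control mice, at no more than 8 fragments per mouse.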
